A study of Mus musculus with 5 samples.

Results

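The collagen gene family was examined in whole mouse testes in which Dmrt1, a DM-domain transcription factor gene of germ cells and Sertoli cells, had been conditionally deleted. Members were all transcripts of the array whose RefSeq identifier maps to a symbol of the form Col, number, a, number. This gave 39 of 25631 transcripts, which stand for 38 of the 44 collagen genes in the RefSeq table. Col3a1 and Col4a1 are examples of such symbols, while Col6a3, Col6a4, Col6a5, Col12a1, Col20a1 and Col22a1 were not analysed here. Total RNA of testes from males at postnatal day 9 was hybridised to 5 single-colour arrays. Of these, 3 came from Cre-positive samples labelled Dmrt1 KO with NGN-cre, 1 from a Cre-negative sample labelled Control with NGN-cre and 1 from a Cre-positive sample labelled Dmrt1 KO with DHH-cre. The labels do not give the floxed alleles, the strain, the genes behind the driver names or the number of animals per sample. A p-value here rests on no more than the spread among the 3 NGN-cre samples, technical spread included. That spread was assumed to hold for the lone control and DHH-cre arrays.

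Collagens are trimeric proteins of the extracellular matrix whose chains wind into a triple helix. Fibrillar collagens, led by types I and III, assemble into banded fibres of the interstitium and of the capsule of the testis, with types V and XI as minor components that set fibre formation. Type IV collagen forms the sheet-like network of basement membranes, among them the one that peritubular myoid cells and Sertoli cells lay down around each seminiferous tubule. The remaining members decorate fibres (the FACIT collagens), form beaded filaments, anchoring fibrils or hexagonal networks, or span the cell membrane.

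Dmrt1 was lower on every knockout array than on the control. Its log2 intensity was 13.53 in the control, 12.25, 12.46 and 12.43 on the NGN-cre arrays and 12.65 on the DHH-cre array. Adjusted over the whole array, the NGN-cre difference of -1.15 (SE 0.22) did not pass (limma, Benjamini-Hochberg adjusted p = 0.281), except with an intensity trend in the variance (adjusted p = 0.0368), over a range of 0.0368 to 0.666. Markers of the expected testis cells were well measured on all arrays, with mean log2 intensities of 14.88 for the germ cell gene Ddx4, 13.78 for the Sertoli cell gene Wt1 and 15.32 for the Leydig cell gene Cyp17a1. The DHH-cre array stood apart from the others: the SD of log2 differences over collagen genes was 0.53 to 0.61 in the 4 pairs that include it and 0.32 to 0.38 in the other 6 pairs. Over olfactory receptor transcripts, which serve as a measure of background, the same SDs were 0.47 to 0.55 and 0.35 to 0.41. The array numbers in the labels also place this array apart, so array batch and DHH-cre deletion cannot be told apart in any value below.

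The first pattern was a low collagen signal on the DHH-cre array. There, 27 of 38 collagen genes lay below the control, against 51.7% of all transcripts, and 23 lay below all 4 other arrays, against 29.1%. The median log2 difference from the control over the 38 genes was -0.38, while over all transcripts it was -0.02. On the NGN-cre arrays the corresponding collagen medians were -0.05, 0.13 and -0.02, all closer to 0. Transcripts of like brightness lay closer to 0 than the collagens on the DHH-cre array: the median over all transcripts with a mean log2 intensity over 13 was -0.02, and over the 11 collagens in that range it was -0.22. The differences were small for most members. Between the knockouts limma called 0 of 38 collagen genes, beside 1% of all transcripts. At an unadjusted p under 0.05 there were 10 of 38, 8 lower and 2 higher, beside 18.3% of all transcripts. In whole testes, fewer cells of a type and less RNA per cell cannot be told apart.

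**Figure D1:**
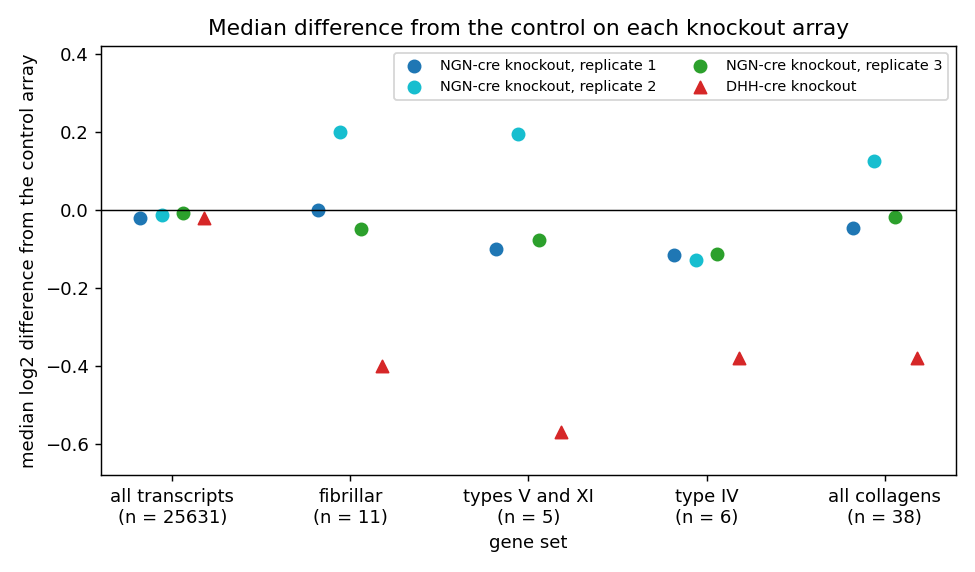
Median log2 difference from the control array (vertical axis) on each knockout array, for all transcripts and for sets of collagen genes, with 1 point per array and no error bar. The DHH-cre array (red triangles) lies at -0.40 for fibrillar and -0.38 for type IV genes, while all transcripts lie near 0 on every array.

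Type IV genes were below the control on the DHH-cre array in 6 of 6 cases (51.7% of all transcripts), with a median of -0.38. Below all other arrays were 5 of the 6 (29.1% of all transcripts). Col4a1 and Col4a2 encode the chains of the ubiquitous type IV network. Col4a1 had log2 intensities of 14.75 in the control, 14.58, 14.66 and 14.57 on the NGN-cre arrays and 14.36 on the DHH-cre array. Col4a2 had 14.69 in the control, 14.63, 14.52 and 14.33 on the NGN-cre arrays and 14.13 on the DHH-cre array. For both genes the control was highest and the DHH-cre array lowest. The DHH-cre value was 1.31-fold below the control for Col4a1 and 1.47-fold below for Col4a2.

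The 2 genes lie next to each other and are read in opposite directions, and their 300-base promoter windows (250 bases before to 50 after each start, RefSeq, GRCm38.p6) share 78 bases. These windows are shown because the pair keeps the same order of groups. The Col4a1 window is chr8:11312777-11313076 on the minus strand and the Col4a2 window chr8:11312555-11312854 on the plus strand. Capitals mark 3 motifs, searched on both strands. The CCAAT box was the letters CCAAT. The GC box was the letters GGGCGG. The TATA box was the letters TATAAA.
Col4a1: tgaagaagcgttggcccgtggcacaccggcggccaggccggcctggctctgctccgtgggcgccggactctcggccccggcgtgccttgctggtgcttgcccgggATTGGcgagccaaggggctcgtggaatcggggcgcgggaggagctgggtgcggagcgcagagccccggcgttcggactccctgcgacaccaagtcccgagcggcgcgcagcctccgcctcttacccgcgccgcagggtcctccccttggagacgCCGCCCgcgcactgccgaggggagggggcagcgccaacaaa
Col4a2: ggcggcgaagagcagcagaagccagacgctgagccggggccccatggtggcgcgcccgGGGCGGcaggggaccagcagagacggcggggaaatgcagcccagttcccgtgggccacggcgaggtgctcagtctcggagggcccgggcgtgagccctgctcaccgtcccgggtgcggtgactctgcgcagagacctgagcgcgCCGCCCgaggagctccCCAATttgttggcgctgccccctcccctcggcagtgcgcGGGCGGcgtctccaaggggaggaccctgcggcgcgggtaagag
Col4a2 holds a CCAAT at position -32 from its start and 3 GC boxes, while Col4a1 holds 1 of each, and neither window holds a TATAAA. The GC box of Col4a1, at position 10, and that of Col4a2 at position 8 are the same site in the shared bases.

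Col4a3 and Col4a4 also neighbour each other, and with Col4a5 they encode the chains of a network known from the kidney filter, lung and testis. Col4a3 had 14.63 in the control, 14.32, 14.43 and 14.47 on the NGN-cre arrays and 14.13 on the DHH-cre array. Col4a4 had 11.67 in the control, 11.61, 11.47 and 11.73 on the NGN-cre arrays and 11.30 on the DHH-cre array. The DHH-cre array was again the lowest for both, 1.41-fold below the control for Col4a3 and 1.29-fold for Col4a4. The X-linked neighbours Col4a5 and Col4a6 differed least. Col4a5 had 11.75 in the control, 11.47, 11.75 and 11.68 on the NGN-cre arrays and 11.63 on the DHH-cre array, which fell inside the NGN-cre range. Col4a6, which occurs in basement membranes of smooth muscle and epithelia, had 11.40 in the control, 11.36, 11.44 and 11.40 on the NGN-cre arrays and 11.28 on the DHH-cre array.

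Against the control the type IV genes also lay slightly low in the NGN-cre knockouts. The mean was below the control for 6 of 6 genes (52.6% of all transcripts) with a median of -0.13, and the median on the separate arrays was -0.12, -0.13 and -0.11. All NGN-cre arrays were below the control for Col4a1, Col4a2 and Col4a3, against 28.8% of all transcripts. The largest of these differences was -0.22 (SE 0.21) for Col4a3 (limma, Benjamini-Hochberg adjusted p = 0.861), about the size of its error. With an NGN-cre array left out, the mean for Col4a4 and for Col4a6 could also lie above the control. With types VII, XV and XVIII added to the class, the medians were -0.06 for the NGN-cre knockout and -0.12 for the DHH-cre array.

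**Figure D2:**
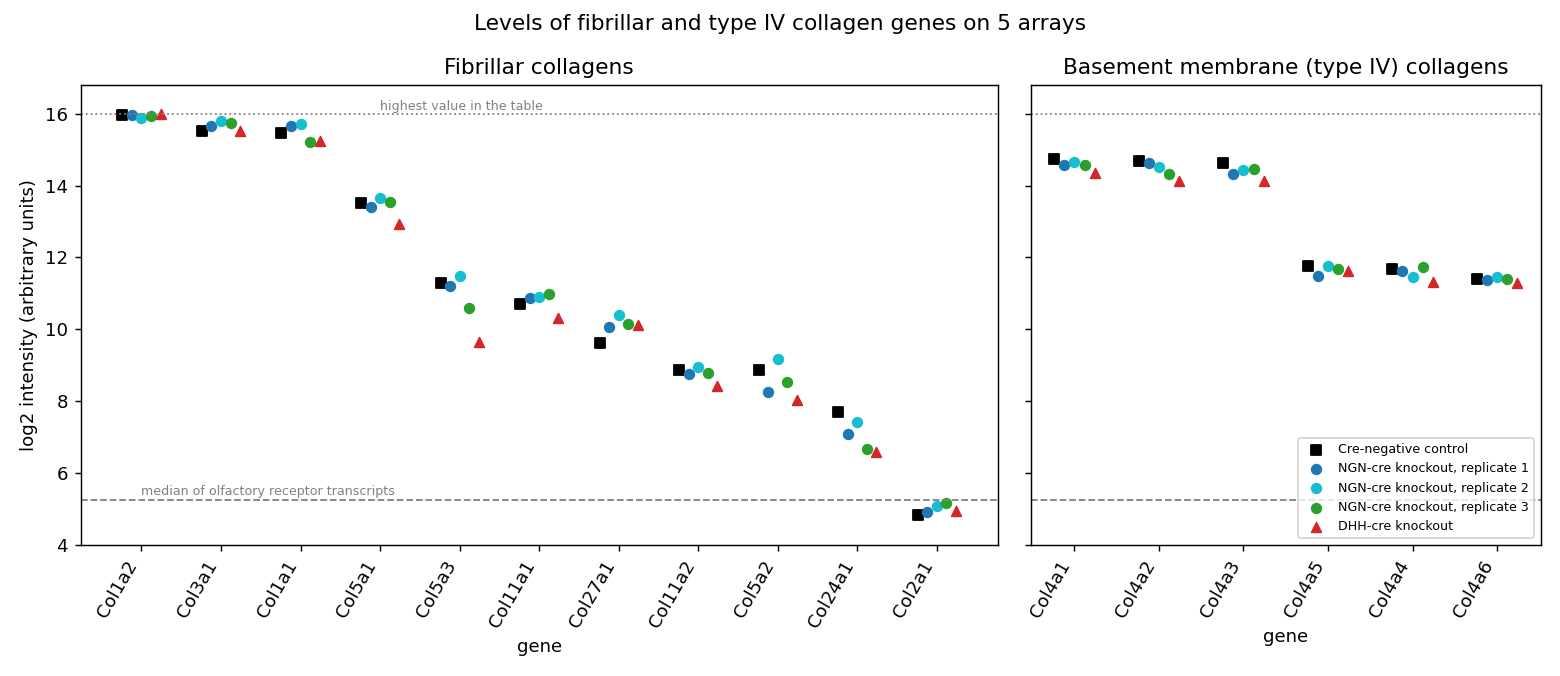
Log2 intensity (vertical axis) of each fibrillar gene (left) and each type IV gene (right) on the 5 arrays, with 1 point per array. Dashed and dotted lines mark the median of olfactory receptor transcripts (5.24) and the highest value of the table (15.99); heights of different genes are not comparable, since they come from different probes.

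Among fibrillar genes, the major chains of types I and III were at the top of the measured range and showed little difference. Col1a2 had 15.97 in the control, 15.97, 15.87 and 15.92 on the NGN-cre arrays and 15.99 on the DHH-cre array. It was the brightest of all transcripts on 2 arrays, with the same intensity of 64388 in the control and NGN-cre replicate 1, which limits what a difference in this gene can show. Col1a1, the partner chain of type I collagen, had 15.47 in the control, 15.67, 15.71 and 15.20 on the NGN-cre arrays and 15.25 on the DHH-cre array, and the NGN-cre arrays span both other values. Col3a1 had 15.51 in the control, 15.66, 15.81 and 15.75 on the NGN-cre arrays and 15.52 on the DHH-cre array. All NGN-cre arrays were above the control for Col3a1, against 25.7% of all transcripts, with a difference of 0.23 (SE 0.21) and a limma Benjamini-Hochberg adjusted p = 0.853.

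The minor fibrillar chains of types V and XI were all lowest on the DHH-cre array, in 5 of 5 genes (29.1% of all transcripts). Their median was -0.57 from the control and -0.61 from the NGN-cre knockouts. These 5 genes were set apart after their values had been seen. Col5a3, a chain of type V collagen, had 11.27 in the control, 11.19, 11.47 and 10.60 on the NGN-cre arrays and 9.64 on the DHH-cre array. Its DHH-cre level was thus 3.11-fold below the control and 2.73-fold below the NGN-cre knockouts. The latter difference of -1.45 (SE 0.35) did not pass (limma, Benjamini-Hochberg adjusted p = 0.104), but it did when the variance was modelled with an intensity trend (adjusted p = 0.0425) and without NGN-cre replicate 3 (adjusted p = 0.013), over a range of 0.013 to 0.221. The promoter window of Col5a3, chr9:20815018-20815317 on the minus strand of GRCm38.p6, is shown because this gene was farthest below the control.
Col5a3: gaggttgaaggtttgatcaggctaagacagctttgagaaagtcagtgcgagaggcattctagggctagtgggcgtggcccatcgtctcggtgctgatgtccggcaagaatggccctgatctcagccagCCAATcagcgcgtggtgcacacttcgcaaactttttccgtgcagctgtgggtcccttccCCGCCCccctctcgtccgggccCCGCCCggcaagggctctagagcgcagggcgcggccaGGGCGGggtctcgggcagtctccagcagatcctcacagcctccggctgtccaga
It holds a CCAAT at position -122 and 3 GC boxes, marked in capitals as above.

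Col5a1, the most widespread type V chain, had 13.51 in the control, 13.40, 13.67 and 13.54 on the NGN-cre arrays and 12.94 on the DHH-cre array. Col5a2, the neighbour of Col3a1, had 8.85 in the control, 8.24, 9.18 and 8.54 on the NGN-cre arrays and 8.03 on the DHH-cre array. The DHH-cre level was 1.49-fold below the control for Col5a1, with NGN-cre arrays close together, and 1.77-fold below for Col5a2, whose NGN-cre arrays spread over 0.93. Of the type XI genes, known from cartilage, Col11a1 had 10.70 in the control, 10.86, 10.90 and 10.97 on the NGN-cre arrays and 10.30 on the DHH-cre array. Col11a2 had 8.86 in the control, 8.76, 8.95 and 8.78 on the NGN-cre arrays and 8.43 on the DHH-cre array. For Col11a1 the NGN-cre arrays lay above the control and the DHH-cre array below it. Between the knockouts Col5a1 differed by -0.60 (SE 0.22) and Col11a1 by -0.61 (SE 0.21), with limma adjusted p = 0.223 and 0.198 (Benjamini-Hochberg).

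The last fibrillar genes lay on different sides of the control. Col27a1, a fibrillar collagen of cartilage, had 9.61 in the control, 10.08, 10.39 and 10.13 on the NGN-cre arrays and 10.12 on the DHH-cre array, so every knockout array was above the control. Its NGN-cre level was 1.5-fold that of the control (log2 0.59, SE 0.23; limma, Benjamini-Hochberg adjusted p = 0.61). Col24a1 had 7.70 in the control, 7.09, 7.42 and 6.66 on the NGN-cre arrays and 6.58 on the DHH-cre array, so every knockout array was below the control. Col2a1, the main collagen of cartilage, stood at 4.82 to 5.16 on the 5 arrays, below the olfactory receptor median of 5.24, and its differences are not interpretable.

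Set side by side, the classes gave similar medians on the DHH-cre array, -0.40 for 11 fibrillar genes and -0.38 for 6 type IV genes against the control. The values within the fibrillar class were more widely spread, from -1.64 to 0.50, than those of the type IV class, from -0.56 to -0.11. Of the fibrillar genes 6 of 11 lay below all other arrays (29.1% of all transcripts) and 1, Col1a2, lay above them (29%). In the NGN-cre knockouts the medians were 0.03 for fibrillar and -0.13 for type IV genes, and on the separate arrays the fibrillar median was 0, 0.20 and -0.05. Without the genes of mean log2 intensity over 15 (Col1a1, Col1a2 and Col3a1), the fibrillar median between the knockouts went from -0.40 to -0.54. No test of the difference between the classes was made.

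**Figure D3:**
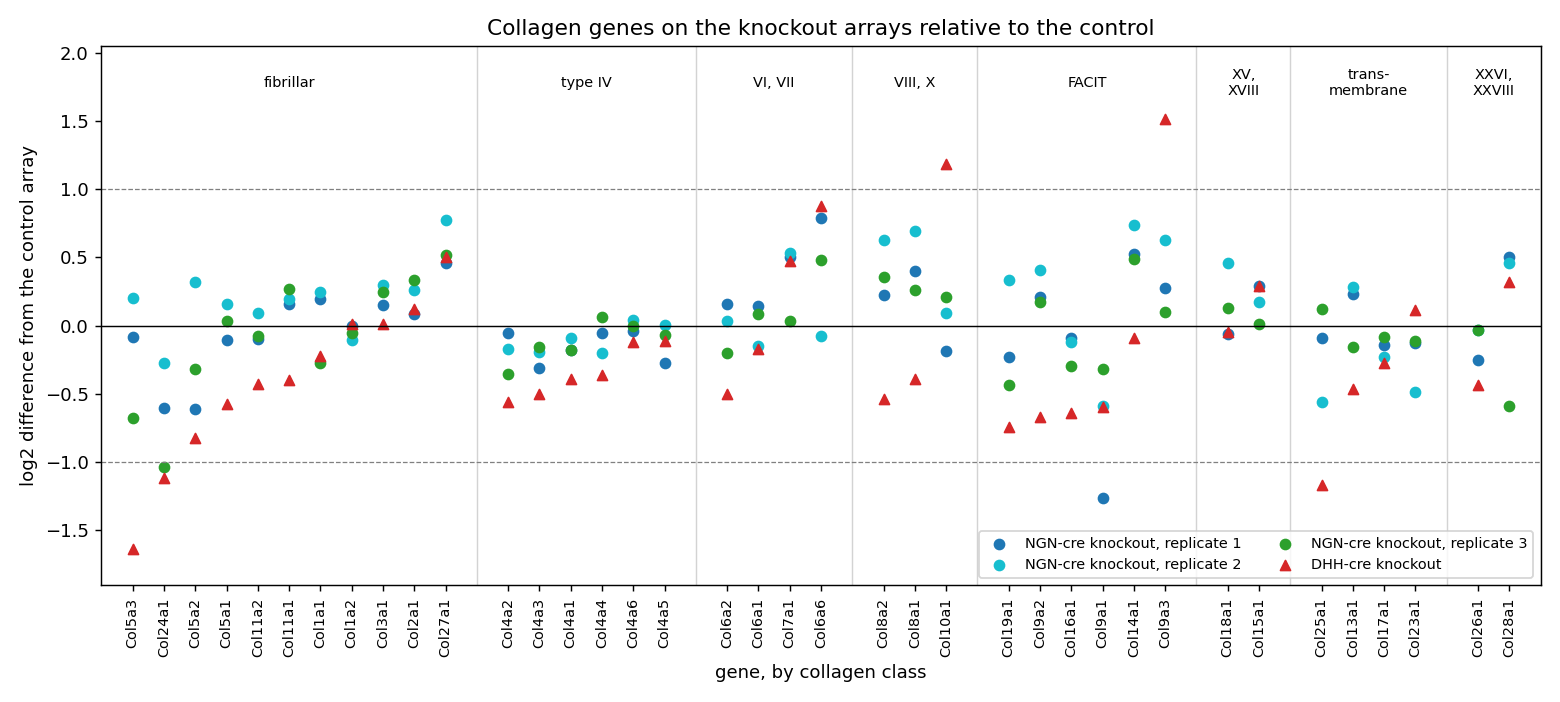
Log2 difference from the control array (vertical axis) for each of the 38 collagen genes on the 3 NGN-cre arrays (circles) and the DHH-cre array (triangles), grouped by class, with dashed lines at a 2-fold difference. Triangles of type IV and of type V and XI genes lie below the line at 0, and Col9a3 and Col10a1 lie above the upper dashed line on the DHH-cre array.

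Outside both classes, 21 collagen genes had a median of -0.27 from the control on the DHH-cre array and of 0.12 in the NGN-cre knockouts. The beaded filament collagen genes Col6a1 and Col6a2 neighbour each other and encode chains of type VI collagen. Col6a2 had 13.77 in the control, 13.92, 13.80 and 13.57 on the NGN-cre arrays and 13.27 on the DHH-cre array, and Col6a1 differed from the control by -0.17 there. Both were lowest on the DHH-cre array. Col6a6, another type VI chain, had 7.43 in the control, 8.21, 7.35 and 7.91 on the NGN-cre arrays and 8.30 on the DHH-cre array. Its mean of 7.84 was below 8.34, the 95th percentile of olfactory receptor transcripts, so the sizes of its differences are uncertain. Col7a1, the anchoring fibril collagen, was above the control on all knockout arrays, by 0.36 in the NGN-cre mean and 0.47 on the DHH-cre array.

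Of the short-chain network collagens, type VIII lay below and type X above the control on the DHH-cre array. Col8a2, a collagen of vessel walls and the cornea, had 10.71 in the control, 10.93, 11.34 and 11.06 on the NGN-cre arrays and 10.17 on the DHH-cre array. The NGN-cre arrays were all above the control and the DHH-cre array was below it, and Col8a1, close to background at 4.80 to 5.89, had the same order. Col10a1, known from hypertrophic cartilage, had 6.11 in the control, 5.93, 6.21 and 6.33 on the NGN-cre arrays and 7.30 on the DHH-cre array, 2.27-fold above the control. On the log2(intensity + 50) scale this difference was 0.80 in place of 1.18, under the 2-fold line. Between the knockouts the Col10a1 difference of 1.15 (SE 0.25) did not pass (limma, Benjamini-Hochberg adjusted p = 0.0835), except without NGN-cre replicate 3 (adjusted p = 0.0358), over a range of 0.0358 to 0.193. Its promoter window, chr10:34389731-34390030 on the plus strand of GRCm38.p6, is shown as one of the 2 members that were at least 2-fold higher on that array on the log2 intensity scale.
Col10a1: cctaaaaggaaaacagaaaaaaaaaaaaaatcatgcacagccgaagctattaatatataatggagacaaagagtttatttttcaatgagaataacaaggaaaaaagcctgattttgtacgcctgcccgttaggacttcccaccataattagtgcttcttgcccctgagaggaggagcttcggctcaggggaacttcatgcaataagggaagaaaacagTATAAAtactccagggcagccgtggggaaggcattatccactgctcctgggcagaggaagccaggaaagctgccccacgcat
The only motif in it is a TATAAA at position -32.

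FACIT collagens, which bind to the surface of fibres, were lower than the control on the DHH-cre array in 5 of 6 genes (51.7% of all transcripts). The exception, Col9a3, a chain of cartilage type IX collagen, had 7.09 in the control, 7.36, 7.71 and 7.18 on the NGN-cre arrays and 8.60 on the DHH-cre array, 2.86-fold above the control. Col9a2, another chain of the same trimer, had 11.09 in the control, 11.30, 11.50 and 11.27 on the NGN-cre arrays and 10.42 on the DHH-cre array, and so lay on the other side of the control there. Between the knockouts Col9a3 differed by 1.18 (SE 0.27) and Col9a2 by -0.94 (SE 0.22), with limma adjusted p = 0.0928 and 0.102 (Benjamini-Hochberg). Col9a1, the remaining chain, had 7.13 in the control, 5.87, 6.55 and 6.82 on the NGN-cre arrays and 6.54 on the DHH-cre array. Col14a1, an interstitial FACIT collagen, had 11.48 in the control, 12.01, 12.22 and 11.97 on the NGN-cre arrays and 11.39 on the DHH-cre array. Its NGN-cre level was 1.5-fold that of the control (log2 0.59, SE 0.23; limma, Benjamini-Hochberg adjusted p = 0.592). On the DHH-cre array Col16a1 differed from the control by -0.64 and Col19a1 by -0.74. Col9a1 and Col19a1 had mean log2 intensities of 6.58 and 6.29. Both were below 8.34, the 95th percentile of olfactory receptor transcripts, so the sizes of their differences are uncertain.

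Among transmembrane collagens, Col25a1 had 8.61 in the control, 8.52, 8.05 and 8.73 on the NGN-cre arrays and 7.44 on the DHH-cre array, 2.24-fold below the control. The gene has another, dimmer transcript on the array, which differed by only -0.16 there, so its transcripts disagree. Col13a1 (-0.46) and Col17a1 (-0.27), a hemidesmosome collagen, were below the control on the DHH-cre array, and Col23a1 was above it (0.11). Of the multiplexins of the basement membrane zone, on the DHH-cre array Col15a1 differed from the control by 0.29 and Col18a1 by -0.05. Col26a1 differed by -0.43 and Col28a1 by 0.32, with the NGN-cre arrays of Col28a1 spread over 1.09.

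In the NGN-cre knockout against the control, limma called 0 of 38 collagen genes at a Benjamini-Hochberg adjusted p under 0.05 (0% of all transcripts), and 2 at an unadjusted p under 0.05, Col14a1 and Col27a1, both higher (7.86% of all transcripts). All NGN-cre arrays lay on one side of the control for 20 of 38 (54.5%), and 0 met the size rule given below (1.88%). Between the DHH-cre and NGN-cre knockouts limma called 0 of 38, with 1% of all transcripts called (0.73% lower and 0.273% higher in the DHH-cre knockout). At an unadjusted p under 0.05 there were 10 of 38 (18.3% of all transcripts), 8 lower (9.55%) and 2 higher (8.77%) in the DHH-cre knockout. The DHH-cre array lay below the NGN-cre mean for 29 of 38 (49.4%), below all NGN-cre arrays for 24 (32.5%) and above all of them for 6 (33.2%). The NGN-cre arrays all lay above and the DHH-cre array below the control for 5 genes (5.88%), and the reverse held for 1 (5.78%). The genes with a low unadjusted p that were lower were Col5a1, Col5a3, Col8a1, Col8a2, Col9a2, Col11a1, Col14a1 and Col25a1, and the higher ones Col9a3 and Col10a1. Against the control, with 1 array on each side and no test, a gene was counted when it was at least 2-fold apart and its difference exceeded the range over the NGN-cre arrays. The count was 5 of 38 against 10.4% of all transcripts, with Col9a3 and Col10a1 higher (5.55%) and Col5a3, Col24a1 and Col25a1 lower (4.81%). On the log2(intensity + 50) scale 2 of them, Col5a3 and Col9a3, were still counted. Of these 5, all but Col5a3 had a mean below 8.34, the 95th percentile of olfactory receptor transcripts, as did 9 of 38 collagens in all, so their sizes are uncertain. Both comparisons of the DHH-cre array use the same array, and both comparisons with the control use the same control, so their values are not independent.

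Genes that build, hold or degrade collagen were described from lists. Of 29 measured biosynthesis genes, limma called 0 in either comparison (at an unadjusted p under 0.05, 1 against the control beside 7.86% of all transcripts, and 6 between the knockouts beside 18.3%), and the median on the DHH-cre array was -0.11 from the control. Lox, the lysyl oxidase that cross-links collagen and elastin, had 11.00 in the control, 10.62, 11.36 and 11.14 on the NGN-cre arrays and 9.78 on the DHH-cre array, the lowest of all. P4ha3, a subunit of collagen prolyl 4-hydroxylase, had 7.17 in the control, 8.64, 9.29 and 8.51 on the NGN-cre arrays and 9.80 on the DHH-cre array, and all knockout arrays were above the control. The NGN-cre difference of 1.64 (SE 0.33) did not pass (limma, Benjamini-Hochberg adjusted p = 0.315), except without NGN-cre replicate 3 (adjusted p = 0.0466). Tll1 encodes a procollagen C-proteinase of the tolloid family. Its mean log2 intensity was 7.06, below the olfactory receptor 95th percentile of 8.34. Tll1 was 1.60 above the control on the DHH-cre array, a size that is thus uncertain. The collagen chaperone gene Serpinh1 differed from the control by -0.20 there and by -0.04 in the NGN-cre knockouts.

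Other basement membrane proteins had a median of -0.02 from the control on the DHH-cre array over 21 genes, beside -0.38 for type IV collagens. Measured from the NGN-cre knockouts, the medians were closer, -0.20 for these 21 genes and -0.26 for type IV collagens. On the DHH-cre array the tubule wall laminin genes Lama1 and Lamb2 differed from the control by -0.02 and 0.05. The laminin-binding nidogen gene Nid1 differed from it by -0.14. Against the control limma called 0 of the 21 (0% of all transcripts), with 2 at an unadjusted p under 0.05 (7.86%). Between the knockouts it called 2 (1% of all transcripts), both lower (0.73%), Frem1 and Frem2, which encode basement membrane proteins of the Fraser complex. Frem1 had 9.66 in the control, 9.44, 9.60 and 9.74 on the NGN-cre arrays and 7.99 on the DHH-cre array (-1.61 between the knockouts, SE 0.23; limma, Benjamini-Hochberg adjusted p = 0.0396). Frem2 had 8.73 in the control, 9.11, 9.36 and 9.14 on the NGN-cre arrays and 7.76 on the DHH-cre array (-1.44, SE 0.23; limma, Benjamini-Hochberg adjusted p = 0.0465). Both were lowest on the DHH-cre array. Without NGN-cre replicate 1 the limma adjusted p (Benjamini-Hochberg) was 0.105 for Frem1 and 0.132 for Frem2, and without replicate 2 it was 0.0557 and 0.0645, so neither call was kept.

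In the remaining matrix lists, 30 genes in all, limma called 0 in either comparison; at an unadjusted p under 0.05 there were 0, 1 and 0 genes against the control, beside 7.86% of all transcripts, and 2, 1 and 2 between the knockouts, beside 18.3%. Small leucine-rich proteoglycans, which coat fibres, had a median of -0.13 on the DHH-cre array over 10 genes, with podocan (Podn) at 0.66, osteomodulin (Omd) at 0.55, lumican (Lum) at -0.41 and decorin (Dcn) at -0.08. Collagen receptors had a median of -0.20 over 8 genes, with the discoidin domain receptor gene Ddr1 at 0.44 and the integrin gene Itga1 at 0.74 in the NGN-cre knockouts and -0.16 on the DHH-cre array. The list of proteases and their inhibitors had a median of 0.00 over 12 genes on the DHH-cre array. There Mmp3 (-1.42) and Mmp9 (-1.27) lay below and Mmp12 (1.13) above the control. Their mean log2 intensities of 7.15, 7.82 and 7.92 were below the olfactory receptor 95th percentile of 8.34, so these sizes are uncertain. Measured from the NGN-cre knockouts, the DHH-cre medians were -0.24 for the proteoglycans, -0.08 for the receptors and -0.06 for the protease list.

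**Figure D4:**
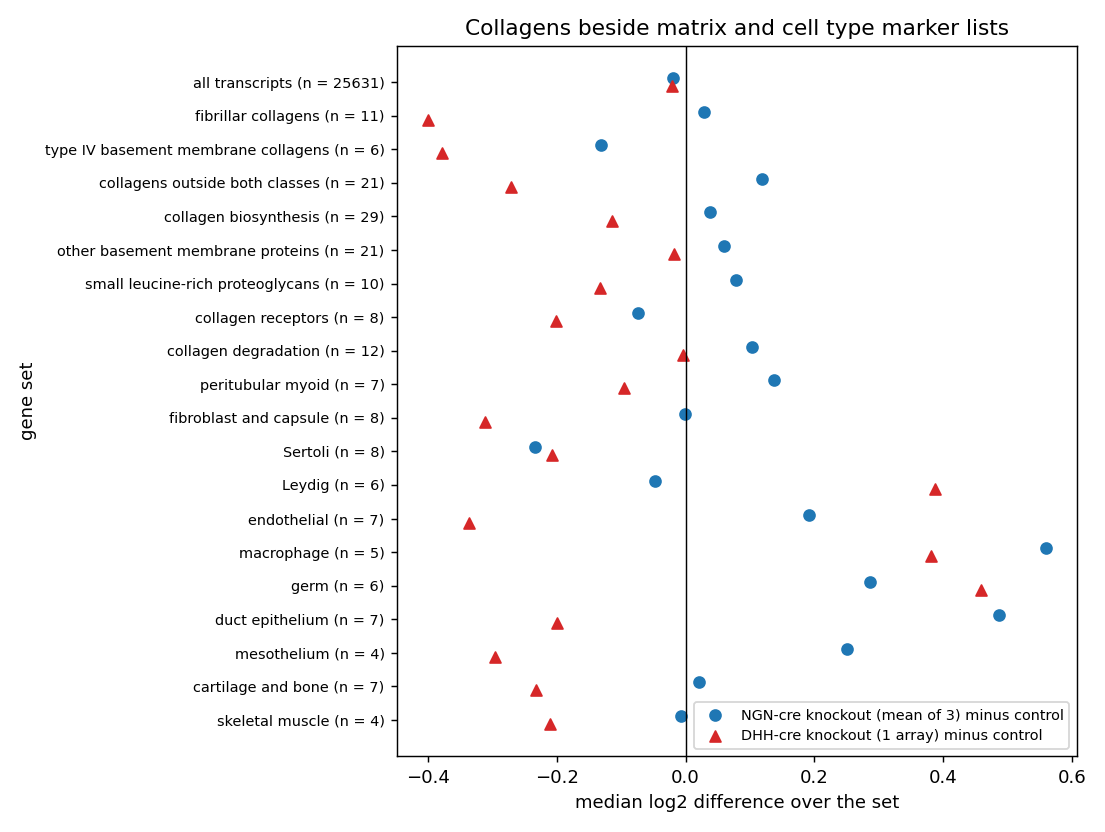
Median log2 difference from the control (horizontal axis) for each gene set, as the mean of 3 NGN-cre arrays (circles) and for the DHH-cre array (triangles), with no error bar. Fibrillar and type IV collagens lie at -0.40 and -0.38 on the DHH-cre array, farther from 0 than the other matrix lists. Germ cell markers lie farther from 0 there, at 0.46.

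Marker lists of other cell types differed in direction on the DHH-cre array. The 8 fibroblast and capsule markers lay at a median of -0.31 from the control (6 of 8 lower), and their summed intensity was 72898 on the DHH-cre array, 82791 in the control and 85128 to 90437 on the NGN-cre arrays. Among them Postn, which encodes the collagen-binding matrix protein periostin, had 12.94 in the control, 12.96, 13.03 and 13.32 on the NGN-cre arrays and 10.81 on the DHH-cre array. Its intensity was 7843 in the control and 1795 on the DHH-cre array, so Postn made up most of the sum's fall from the control. It fell by 2.29 between the knockouts (SE 0.24; limma, Benjamini-Hochberg adjusted p = 0.0209), a call that was lost without NGN-cre replicate 1 (adjusted p = 0.0576). Pdgfra differed by -0.03 between the knockouts and by 0.0007 between the DHH-cre array and the control. Peritubular myoid markers were mixed, with a median of -0.10 and 4 of 7 lower, beside 51.7% of all transcripts. Cnn1 (0.89), Tagln (0.74) and Des (0.20) lay above the control. The brighter Acta2 (-0.55), Myh11 (-0.22), Actg2 (-0.10) and Tpm2 (-0.63) lay below it. Cnn1 had a mean log2 intensity of 7.80, below the olfactory receptor 95th percentile of 8.34. The list had a summed intensity of 48119 on the DHH-cre array, 57042 in the control and 57264 to 63502 on the NGN-cre arrays. Endothelial markers lay at a median of -0.34 (6 of 7 lower) and gave sums of 19946, 24182 and 26750 to 29685 in the same order. Mesothelium markers were lower in 4 of 4 cases, with sums of 4766, 5813 and 6056 to 7464. From the NGN-cre knockouts, DHH-cre medians were -0.28 for fibroblast and capsule, -0.15 for myoid, -0.51 for endothelial and -0.56 for mesothelium markers. The 38 collagen genes lay at -0.28 in this comparison, so a low DHH-cre signal was not particular to collagens.

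For Sertoli cells the median was -0.21 (5 of 8 markers lower), and the sums were 61862, 80691 and 67255 to 74278. Without Cst9 the sums were 60186 on the DHH-cre array, 60951 in the control and 54610 to 58405 on the NGN-cre arrays, so the DHH-cre array then lay above all NGN-cre arrays. Within this list Cst9 (-3.06; limma, Benjamini-Hochberg adjusted p = 0.0153) and Fshr (-1.55; adjusted p = 0.0369) were lower in the DHH-cre than in the NGN-cre knockout, and Wt1 differed by 0.16. The call of Fshr was lost without NGN-cre replicate 1 (limma, Benjamini-Hochberg adjusted p = 0.115) or replicate 2 (0.0539), and that of Cst9 held under each alternative run. Leydig cell markers lay the other way, with a median of 0.39 and sums of 98035, 81071 and 67545 to 88873. Germ cell markers lay at a median of 0.46 (5 of 6 higher) and gave sums of 163125, 114235 and 139880 to 155005. Duct epithelium markers were lower in 7 of 7 cases on the DHH-cre array, beside 51.7% of all transcripts, with sums of 26227, 29884 and 37544 to 43411. In this list limma called Cdh1 lower between the knockouts (-1.99, SE 0.32), and the alternatives were not run for it. Cdh1 had 11.95 in the control, 13.58, 13.32 and 12.84 on the NGN-cre arrays and 11.26 on the DHH-cre array. From the NGN-cre knockouts, DHH-cre medians were -0.81 for duct epithelium, 0.02 for Sertoli, 0.42 for Leydig and 0.20 for germ cell markers. Macrophage markers had sums of 11436, 9153 and 11871 to 15931. Cartilage and bone markers had sums of 1751, 2252 and 2078 to 2645, and skeletal muscle markers of 743, 922 and 1004 to 1177. In these lists 5 of 7 and 3 of 4 markers had a mean below 8.34, the 95th percentile of olfactory receptor transcripts. Their sums are thus uncertain. No marker of any list was at 0 on any array, which does not show that each was detected. The part of the marker lists in the collagen differences was not tested.

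Of the 38 genes, 31 had a promoter window in the RefSeq table, with 34 windows in all. The letters CCAAT, searched on both strands, were in 12 of the 34 windows, against 37.4% of all 32851 windows. GGGCGG was in 21 of 34 against 35.7%, and TATAAA in 5 of 34 against 13.6%. Sites of different motifs did not overlap in any collagen window. Among type IV genes 4 of 5 held a GC box and 0 held a TATAAA, and among fibrillar genes 6 of 8 held a GC box and 2, Col3a1 and Col11a2, held a TATAAA. By the RefSeq gene order, 6 pairs of measured collagen genes were next neighbours. On the DHH-cre array both genes were below the control in 5 of them, Col4a1 with Col4a2, Col4a3 with Col4a4, Col4a5 with Col4a6, Col6a1 with Col6a2 and Col9a1 with Col19a1. The exception was Col3a1 (0.01) with Col5a2 (-0.82). Since 27 of 38 collagen genes lay below the control on that array, this count does not single out neighbouring genes.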

How the data were processed

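Total RNA of whole testes was hybridised to single-colour NimbleGen MM8 60mer arrays, per the labels' protocols. The deposited values are linear intensity values, 1 for each transcript on each array. The submitters' processing notes name RMA, without a version. RMA equalises the arrays' distributions, so a shift of total RNA cannot be seen, and the probes behind a value could not be read from the sources used here. Analysis used the log2 of these deposited intensities, not normalized again and not filtered. Median intensities were 721 to 730, and the number of arrays limits the precision. Names came from RefSeq transcript identifiers (GRCm38.p6, names and promoter windows only), and 17780 of 25631 transcripts matched 1 symbol. Where a gene had several transcripts, the brightest over all arrays stood for it.

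A model with 1 mean per group was fitted with limma 3.58.1 under R 4.3.3 (moderated test, two-sided, Benjamini-Hochberg over all 25631 transcripts). Its 2 residual degrees of freedom rest on the 3 NGN-cre arrays alone, whose spread was taken to hold for both single-array groups. The fit was checked on simulated data. The members and lists were chosen with earlier results of these data known. Of 202 list genes 187 were measured. Named were Dmrt1, every fibrillar and type IV gene, and from other lists genes past a threshold or with the largest differences. Lama1, Lamb2, Nid1, Serpinh1, Dcn, Lum, Pdgfra, Cnn1, Tagln, Des, Acta2, Myh11, Actg2, Tpm2, Wt1, Ddx4 and Cyp17a1 were named after their values were seen, as were some collagens of the other classes. Alternatives were an intensity trend, repeated quantile normalization, median centring, a pseudocount of 50, leaving out dim transcripts, only the groups compared, each NGN-cre replicate left out, other size rules and other class memberships. Leaving Cst9 out of the Sertoli sum was added after seeing the data.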

Additional observations from a re-analysis of the deposited data

Results flagged for a closer look

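In 6 collagen genes every NGN-cre array lay on one side of the control and the DHH-cre array on the other. The difference between the knockouts was -0.845 for Col8a1, -0.937 for Col8a2, -0.936 for Col9a2, -0.607 for Col11a1 and -0.673 for Col14a1, and 0.355 for Col23a1. The test of this difference passed for none of them (limma, Benjamini-Hochberg adjusted p from 0.102 for Col9a2 to 0.501 for Col23a1). These genes were picked on the same arrays that the test compares, so its p-values give the pattern no separate support. Of all transcripts, 5.88% had the NGN-cre arrays above and the DHH-cre array below the control, the pattern of the first 5 genes, and 5.78% the opposite pattern, that of Col23a1. The values share the control array, and the DHH-cre side is a lone array. Groups of 3 arrays or fewer are too small to check for a stray array.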

How the results depend on the processing

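No paired analysis was possible because the labels give the samples no replicate numbers and the control and DHH-cre groups hold 1 array each. The number of transcripts called in the NGN-cre knockout against the control went from 0 to 66 with an intensity trend and ran from 0 to 238 with an NGN-cre array left out, highest without replicate 3, while 0 collagen genes were called under each of these. Between the knockouts the 257 transcripts called went to 729 with the trend and to 97 with log2(intensity + 50), and ran from 38 without replicate 1 to 1321 without replicate 3. The collagen count there went from 0 to 1 with the trend (Col5a3) and ran from 0 to 2 with an array left out (Col5a3 and Col10a1 without replicate 3). By the size rule 5 collagens became 2 with log2(intensity + 50) and 1 at 3-fold, where the count over all transcripts went from 2654 to 806. Type IV genes with all NGN-cre arrays below the control ran from 3 to 5, the latter without replicate 2. The type IV median of the NGN-cre knockout (-0.13) was -0.14 with median centring, ran from -0.17 to -0.10 with an array left out, and was -0.0641 with the class widened to types VII, XV and XVIII. The fibrillar median in this comparison ran from -0.04 to 0.06 with an array left out. Between the knockouts the type IV median (-0.26) ran from -0.28 to -0.24 and was -0.22 in the widened class, and the fibrillar median (-0.40) was -0.54 without genes of mean log2 over 15, an alternative chosen after seeing the data. Against the control on the DHH-cre array the type IV median (-0.38) was -0.39 with repeated quantile normalization, -0.40 with median centring and -0.12 in the widened class. The cause of these differences was not tested. Frem1 and Frem2 also lost their calls with log2(intensity + 50), at adjusted p = 0.0527 and 0.0647 (limma, Benjamini-Hochberg). Of 1073 recomputed differences of single genes 26 took the other sign, each from a difference of at most 0.201 that passed no threshold on either side. A further 9 no longer passed, none of them a collagen, and 5 newly passed. With log2(intensity + 50) the DHH-cre difference from the control moved by more than the spread between NGN-cre arrays for Col8a1 (to -0.15), Col9a3 (to 1.24) and Col10a1 (to 0.80). Signal near background limits the dim members, and the top of the scale limits Col1a2.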
